A study of Mus musculus with 12 samples.

Results

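The vacuolar-type proton pump (V-ATPase) is described here through 10 of the 47069 genes in the count table. Atp6v1b1, which encodes the B1 subunit, was chosen by its low level after 5-fluorouracil (5-FU) in these libraries, and the other 9 genes are listed subunits of the same enzyme set beside it. They comprise 6 broadly expressed subunit genes (Atp6v1a, Atp6v1b2, Atp6v1c1, Atp6v1e1, Atp6v0a1 and Atp6v0d1) and 4 tissue-restricted isoforms (Atp6v1b1, Atp6v1c2, Atp6v0a4 and Atp6v0d2). The question was whether the low level after 5-FU was limited to the restricted isoforms.

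Messenger RNA was sequenced from cells of organoids grown from liver tumors, which had been induced in mice with diethylnitrosamine. All 4 groups carry the genotype LGR5-DTRGFP+ on a C57BL/6 background, in which the Lgr5 promoter drives green fluorescent protein together with the diphtheria toxin receptor. Cells were sorted on that fluorescence into an LGR5+ and an LGR5- population, after dead cells and leucocytes had been gated out, from organoids left untreated or exposed to 5-FU, a pyrimidine analogue that blocks thymidylate synthesis and is built into RNA. Each of the 4 groups (untreated LGR5-, untreated LGR5+, 5-FU LGR5-, 5-FU LGR5+) holds 3 libraries, and the labels give neither the dose nor the duration of 5-FU, nor whether the 3 came from separate cultures, so p-values measure the spread between these libraries, which may be technical.

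The V-ATPase hydrolyses ATP in its cytosolic V1 sector and uses the energy to turn a rotor that carries protons through its membrane sector, V0. It acidifies lysosomes, endosomes and secretory vesicles in every cell, and in specialised epithelia and osteoclasts it is placed in the plasma membrane to secrete acid. Several subunits exist as a broad isoform and as one or more restricted isoforms encoded by separate genes. Subunit B1 is known from the acid-secreting intercalated cells of the kidney, the epididymis and the inner ear, C2 from lung and kidney, a4 from kidney, and d2 from kidney and osteoclasts, while B2, C1, a1 and d1 are found in most tissues. Subunit A is the catalytic subunit of V1 and E1 is part of its peripheral stalk.

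The isoform genes of each pair differ along their whole coding sequence. Over the aligned coding bases Atp6v1b1 was 76.2% identical to Atp6v1b2 (1155 of 1515 bases), and the longest run shared without a difference was 26 bases. Identity was 66.5% for Atp6v1c2 and Atp6v1c1, 69.5% for Atp6v0a4 and Atp6v0a1, and 65.9% for Atp6v0d2 and Atp6v0d1. The most similar 60-base stretch of the B pair and of the C pair is given below, since these stretches show how far the isoforms differ even where they are closest. Sequences are from the GENCODE M21 transcripts on GRCm38, and capitals mark the 6 bases that differ in the B pair (coding bases 829 to 888 of Atp6v1b1 and 847 to 906 of Atp6v1b2) and the 11 that differ in the C pair (coding bases 1072 to 1131 of Atp6v1c2 and 907 to 966 of Atp6v1c1).
Atp6v1b1: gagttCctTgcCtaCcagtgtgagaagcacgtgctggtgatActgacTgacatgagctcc
Atp6v1b2: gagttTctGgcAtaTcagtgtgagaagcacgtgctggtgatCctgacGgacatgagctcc
Atp6v1c2: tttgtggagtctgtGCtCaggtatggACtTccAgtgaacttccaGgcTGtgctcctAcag
Atp6v1c1: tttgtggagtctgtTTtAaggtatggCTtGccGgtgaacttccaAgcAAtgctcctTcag

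Of the stretches of 75 bases in the members' transcripts, none recurred in another gene for 8 of the 10. The exceptions were Atp6v0a4, with 3.73% of its stretches also in D630045J12Rik, and Atp6v1a, with 0.147% also in Gm18990. Atp6v1b1 lies at chr6:83742990-83758855 on the plus strand of GRCm38 and shares no exon base with another gene. Atp6v1c2 lies at chr12:17284721-17329359 on the minus strand and shares 2.3% of its exon bases with Pdia6 on the opposite strand. Whether the counts separate the strands is not given in the sources used here.

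The sequence before the start site is shown for the 2 restricted isoforms with measurable levels. The bases come from the RefSeq promoter windows on GRCm38.p6, without the annotated exons, and capitals in Atp6v1c2 mark an ATAAAA at position -31 from the RefSeq start and a GGGCGG at position -21. The Atp6v1b1 stretch is chr6:83742767-83742989 on the plus strand and held none of the motifs searched, while an ATAAAA lies after the start, at position 2 (position 0 is the first base of the transcript), outside the stretch shown. The Atp6v1c2 stretch is chr12:17324731-17324980 on the minus strand, within the outer bounds of the GENCODE gene.
Atp6v1b1: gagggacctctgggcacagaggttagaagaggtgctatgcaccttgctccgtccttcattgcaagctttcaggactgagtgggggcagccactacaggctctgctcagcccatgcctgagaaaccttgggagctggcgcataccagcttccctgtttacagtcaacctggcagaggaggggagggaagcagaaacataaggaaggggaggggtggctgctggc
Atp6v1c2: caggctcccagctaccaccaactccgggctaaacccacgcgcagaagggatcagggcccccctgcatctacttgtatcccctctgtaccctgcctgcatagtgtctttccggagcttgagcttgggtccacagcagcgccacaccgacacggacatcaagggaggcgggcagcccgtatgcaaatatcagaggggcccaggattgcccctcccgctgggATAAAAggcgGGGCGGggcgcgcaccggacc

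The 300-base windows around the start held 3 CG dinucleotides in Atp6v1b1 and 1 in Atp6v0a4, against 22 in Atp6v1c2 and 7 to 26 in the 4 broad members with a window (Atp6v0a1, Atp6v1a, Atp6v1e1 and Atp6v0d1), and a median of 7 over all 32851 windows. A window was at hand for 7 of the 10 members. Those of Atp6v1a and Atp6v0a1, like that of Atp6v1c2, lay within the outer bounds of their GENCODE genes. CACGTG, the E-box read by lysosomal regulators of the MiT/TFE family, was searched on both strands and occurred in the windows of Atp6v1a (position -131) and Atp6v0d1 (position -3) and in none of the other 5. It occurred in 7.15% of all windows. The longer CLEAR element, which contains it, was found in no member and in 0.326% of all windows. Among the other subunit genes with a window, CACGTG occurred 2 times in Atp6v0b, which was called after 5-FU under some alternatives only, and 1 time in Atp6v0e, which rose, and it was absent from the windows of Atp6v1d and Atp6v0e2, which also rose. ATAAAA and GGGCGG, also searched on both strands, occurred in 18.5% and 35.7% of all windows. The E-boxes of Atp6v1a (chr16:44139373-44139402, minus strand) and Atp6v0d1 (chr8:105566050-105566079, minus strand) are given in capitals with their flanks, as the members whose windows hold the motif. Both genes rose after 5-FU, as did Atp6v1e1, whose window holds none. A match is a description of the letters in the window.
Atp6v1a: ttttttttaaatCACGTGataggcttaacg
Atp6v0d1: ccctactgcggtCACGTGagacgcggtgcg

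The 12 libraries held 13750591 to 19323514 counted reads, and levels are CPM (reads of a gene scaled to a common library total) with library sizes scaled by the trimmed mean of M values (TMM). A level of 3 reads, taken as the smallest that counts as detected, corresponded to 0.155 to 0.218 CPM per library before that scaling. Mitochondrial genes took 6.93% of the reads in replicate 3 of untreated LGR5- and 6.44% in replicate 3 of 5-FU LGR5-, against 1.47% to 3.08% in the other 10 libraries. Lgr5, the gene behind the sort, was not separated by it: untreated LGR5- libraries read 27.5, 23.0 and 36.0 CPM and untreated LGR5+ libraries 27.5, 23.4 and 26.2 CPM (log2 fold change -0.17, SE 0.23, edgeR adjusted p = 1). After 5-FU the LGR5- libraries read 21.1, 18.3 and 35.9 CPM and the LGR5+ libraries 27.0, 26.8 and 27.2 CPM (log2 fold change 0.11, SE 0.24, edgeR adjusted p = 0.842). The populations are therefore named as labelled, and the comparisons of 5-FU with untreated libraries were made within each labelled population.

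Atp6v1b1, the restricted B subunit, was low in untreated libraries and close to absent after 5-FU. The untreated LGR5+ libraries held 21, 33 and 85 reads (1.21, 2.03 and 5.08 CPM), and the 5-FU LGR5+ libraries held 5, 0 and 0 reads (0.281, 0 and 0 CPM). The untreated LGR5- libraries held 31, 33 and 40 reads (1.88, 1.81 and 2.22 CPM), and the 5-FU LGR5- libraries held 1, 1 and 0 reads (0.0589, 0.0585 and 0 CPM). Each of the 6 untreated libraries was above each of the 6 treated ones, and only 1 treated library was above the 3-read level. Replicate 3 of untreated LGR5+ stood above the other 2 of its group.

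The group means of Atp6v1b1 were 2.77 ± 2.04 CPM (SD, n = 3) in untreated LGR5+, 1.97 ± 0.220 in untreated LGR5-, 0.0937 ± 0.162 in 5-FU LGR5+ and 0.0391 ± 0.0339 in 5-FU LGR5-. In that order, the first neighbours and the last neighbours did not differ beyond their spread. Pooled over the group, the level was 29.3-fold lower after 5-FU in LGR5+ cells (139 against 5 reads, 95% exact interval 12.3 to 91.7) and 47.0-fold lower in LGR5- cells (104 against 2 reads, 12.7 to 393.5). These intervals cover counting error only. The fitted log2 fold changes were -4.78 (SE 0.88) and -5.34 (SE 1.0), and they are given as a description, because the gene was chosen on these contrasts. Without replicate 3 of untreated LGR5+ the LGR5+ value was -4.0, and without replicate 1 of 5-FU LGR5+, the treated library with 5 reads, it was -8.56. Among all genes tested, 20.0% in LGR5+ cells and 13.4% in LGR5- cells had treated libraries that all lay below the untreated ones. In bulk libraries such as these, fewer cells that express a gene and less of its RNA per cell cannot be told apart.

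The broad partner, Atp6v1b2, was not called after 5-FU. It read 127, 122 and 141 CPM in untreated LGR5+ and 133, 136 and 142 CPM in 5-FU LGR5+, and 122, 122 and 130 CPM in untreated LGR5- against 109, 138 and 94.7 CPM in 5-FU LGR5-. Groups overlapped in both populations. The log2 fold change after 5-FU was 0.08 in LGR5+ cells (SE 0.17, adjusted p = 0.812, 95% interval -0.29 to 0.44) and -0.13 in LGR5- cells (SE 0.17, adjusted p = 0.673, -0.49 to 0.24), by edgeR's quasi-likelihood test with Benjamini-Hochberg adjustment over all 16157 genes tested, which is the test behind each adjusted p of a single gene here. Per kilobase of exon, Atp6v1b2 was the more abundant B subunit gene before and after treatment, with mean levels of 21.5 to 25.8 CPM per kilobase over the 4 groups. Atp6v1b1 made up 2.44% ± 1.57 (SD, n = 3) of the summed B1 and B2 level per kilobase in untreated LGR5+ and 0.0853% ± 0.148 after 5-FU. In LGR5- cells the share was 1.87% ± 0.138 and 0.0388% ± 0.0343.

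**Figure D1:**
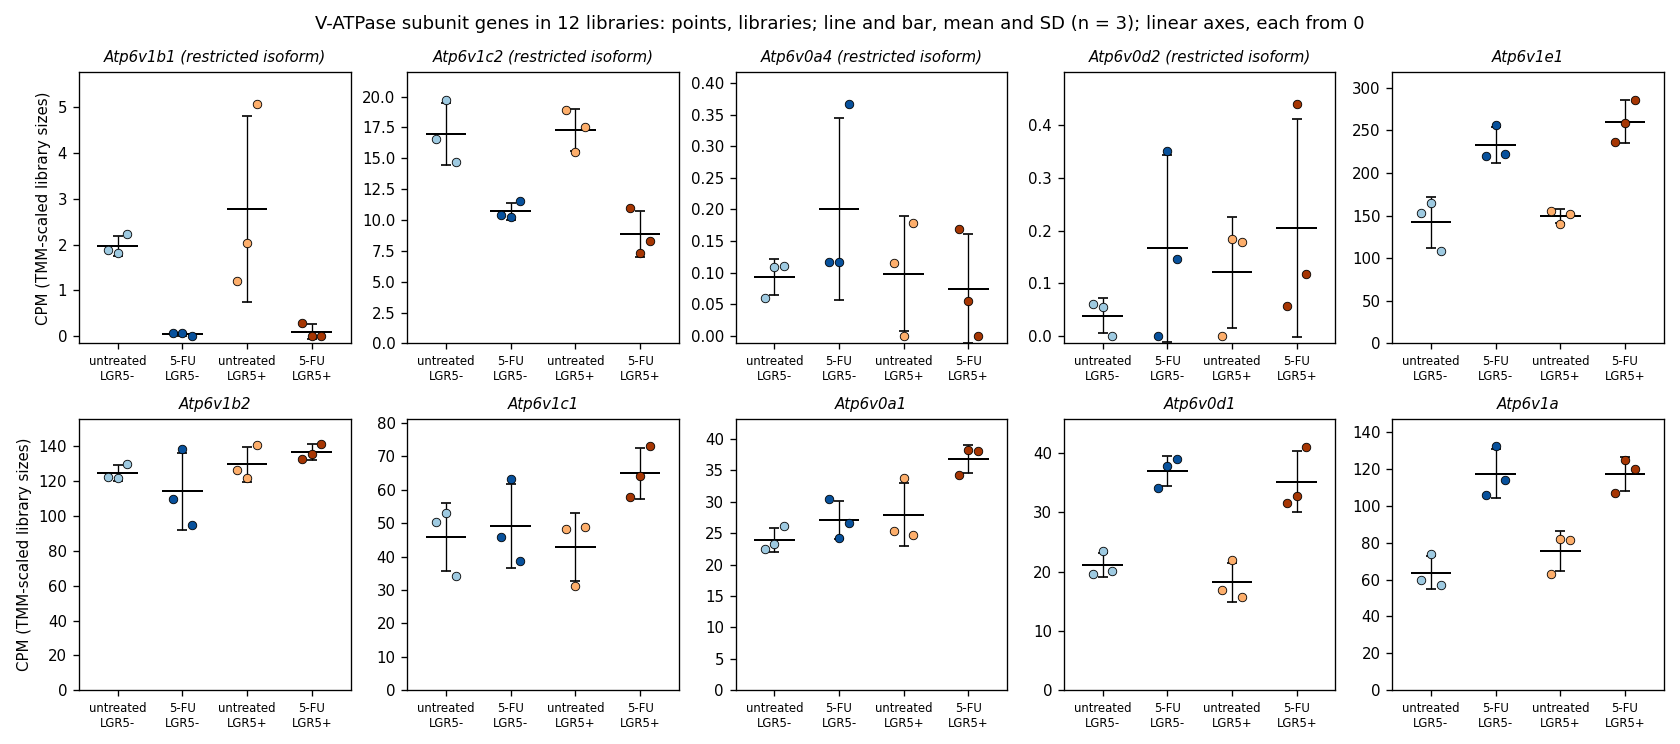
Levels of the 10 V-ATPase subunit genes in CPM on linear axes that start at 0, with 1 point per library and the mean and SD of 3 libraries per group. All treated libraries of Atp6v1b1, chosen for its low level after 5-FU, and of Atp6v1c2 lie below the untreated ones. Those of Atp6v1e1, Atp6v0d1 and Atp6v1a lie above, and Atp6v0a4 and Atp6v0d2 stay under 0.5 CPM in every library. Of all genes tested, 20.0% in LGR5+ and 13.4% in LGR5- cells lay wholly below after 5-FU, and 22.3% and 13.7% wholly above.

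Of the other 9 members, which were listed for their place in the enzyme, 7 had enough reads to be tested. In LGR5+ cells, 4 of the 7 were called at an adjusted p under 0.05, with 3 higher after 5-FU and 1 lower, where 16.0% of all genes tested were called, 9.66% higher and 6.37% lower. In LGR5- cells the same genes were called in the same directions, again 3 higher and 1 lower, where 15.4% of all genes were called, 8.30% higher and 7.11% lower. The median log2 fold change of the 7 was 0.60 in LGR5+ cells and 0.18 in LGR5- cells, beside -0.02 and -0.05 over all genes tested. The gene that fell was the restricted Atp6v1c2, and of the 6 broad genes 3 rose and none fell in either population. The study's methods give thresholds of p under 0.05 and a log fold change beyond 1.5 either way, read here as an unadjusted p and log2. By these, 0 of the 7 passed in either population, since each change was below 1 on the log2 scale. Of all genes, 7.23% passed in LGR5+ and 7.0% in LGR5- cells.

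Atp6v1c2 encodes the restricted form of subunit C, which links the stalk of V1 to the membrane sector. It read 18.9, 15.5 and 17.5 CPM in untreated LGR5+ and 10.96, 7.32 and 8.30 CPM in 5-FU LGR5+. It read 16.5, 19.7 and 14.7 CPM in untreated LGR5- and 10.4, 10.2 and 11.5 CPM in 5-FU LGR5-. All treated libraries lay below all untreated ones within each population, as in 20.0% of all genes in LGR5+ and 13.4% in LGR5- cells. The gene fell by 0.97 on the log2 scale in LGR5+ cells (SE 0.20, adjusted p = 0.00388, to 0.511 of the untreated level) and by 0.66 in LGR5- cells (SE 0.20, adjusted p = 0.0337, to 0.631). The call in LGR5+ cells held when any 1 library was left out. The call in LGR5- cells was lost on leaving out any 1 library other than replicate 3 of untreated LGR5- (adjusted p = 0.0617 to 0.137), with no filter on low counts (0.0878) and in the fit on the 6 LGR5- libraries alone (0.107), with the direction kept.

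Atp6v1c1, the broad form, was not called. It read 48.4, 31.2 and 48.9 CPM in untreated LGR5+ and 57.7, 64.0 and 73.0 CPM in 5-FU LGR5+, so the groups did not overlap, as in 22.3% of all genes tested for a higher level after treatment. Its log2 fold change there was 0.60 (SE 0.24, adjusted p = 0.0998, 95% interval 0.10 to 1.10), and the fit on the 6 LGR5+ libraries alone gave an adjusted p of 0.0309. In LGR5- cells it read 50.4, 53.2 and 34.1 CPM untreated and 45.7, 63.2 and 38.7 CPM after 5-FU, which overlapped (log2 fold change 0.10, SE 0.24, adjusted p = 0.818, -0.40 to 0.61).

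The C pair went from near parity to a majority of C1. Per kilobase of exon, Atp6v1c2 made up 51.5% ± 4.29 (SD, n = 3) of the summed C level in untreated LGR5+ and 26.1% ± 5.86 after 5-FU, and 49.1% ± 3.41 and 36.6% ± 6.96 in LGR5- cells. The log2 ratio of C2 to C1 per kilobase, with 0.5 reads added, was 0.01, 0.36 and -0.12 for LGR5+ libraries without treatment and -1.03, -1.76 and -1.77 after 5-FU. In LGR5- cells it was -0.24, -0.07 and 0.16 untreated and -0.77, -1.26 and -0.38 treated. The groups did not overlap in either population. The change was -1.61 in LGR5+ and -0.75 in LGR5- cells, each with p = 0.1 by the exact two-sided permutation test, the smallest that 3 against 3 libraries can give, and 0.3 after Benjamini-Hochberg adjustment over the 6 ratios tested, so this design could not take these ratios past 0.05. The log2 ratio of B1 to B2 changed by -5.31 in LGR5+ and -4.78 in LGR5- cells, which is a description with no test.

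**Figure D2:**
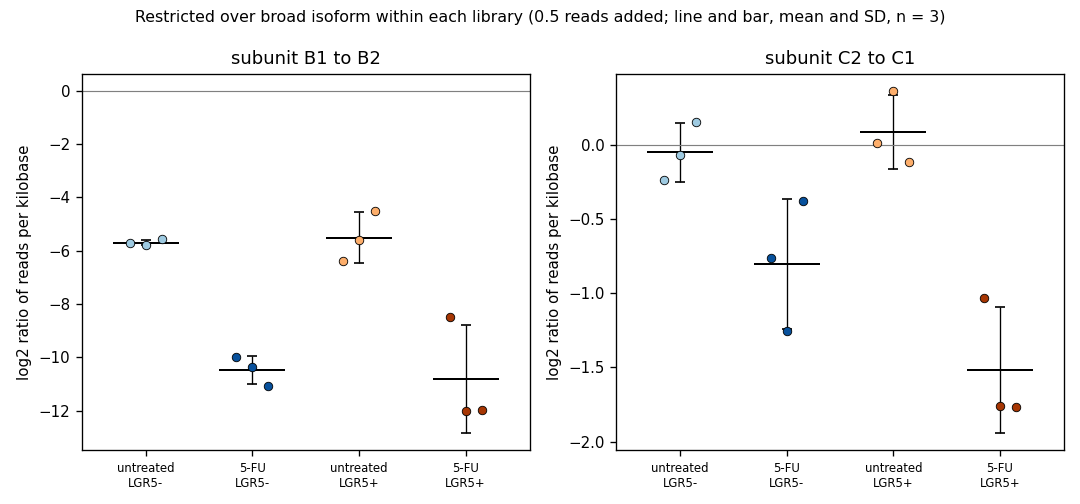
Log2 ratio of the restricted to the broad isoform per kilobase of exon in each library, with 0.5 reads added, for subunit B (left) and subunit C (right), where points are libraries and the line and bar are the mean and SD of 3. The C ratio averages 0.09 in untreated LGR5+ and -1.52 after 5-FU, and the B ratio lies below -4 in every library and below -8 in every treated one.

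The V0 isoforms a4 and d2, the restricted forms of the subunits that anchor the stalk and the rotor, were too low to follow. Atp6v0a4 held 0 to 5 reads per library, and its group sums were 5 reads in untreated LGR5-, 5 in untreated LGR5+, 9 in 5-FU LGR5- and 4 in 5-FU LGR5+. Atp6v0d2 held 0 to 8 reads per library, with group sums of 2, 6, 8 and 11 reads in the same order. Both were removed by the filter on low counts, and with no filter neither was called after 5-FU (adjusted p = 0.959 and 0.702 for Atp6v0a4 and 0.82 and 0.497 for Atp6v0d2, in LGR5+ and LGR5- cells). The ratios of a4 to a1 and of d2 to d1 overlapped between treated and untreated libraries in both populations (exact permutation p = 0.4 to 1). The level of Atp6v0a4 itself did not overlap in LGR5- cells, at 0.0606 to 0.111 CPM untreated and 0.117 to 0.367 CPM after 5-FU, higher in the treated libraries on 1 to 5 reads each. A change in these isoforms was not detectable at this depth, so among the 4 restricted members the question of a fall rests on Atp6v1c2 beside the chosen gene. Of the isoforms among the other subunit genes, Atp6v1g2 was not called, with log2 fold changes of -0.42 and -0.37 in LGR5+ and LGR5- cells, and neither was Tcirg1. Atp6v0e2 and Atp6v0e rose in both populations and Atp6v0a2 in LGR5+ cells, while Atp6v1e2 and Atp6v1g3 had too few reads to be tested.

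Of their broad partners, Atp6v0d1 was called and Atp6v0a1 was not, and the difference between these genes was not tested. Atp6v0d1, which couples the rotor to the central stalk, read 16.9, 22.0 and 15.8 CPM in untreated LGR5+ and 31.6, 32.8 and 41.0 CPM in 5-FU LGR5+. It read 19.7, 23.4 and 20.1 CPM in untreated LGR5- and 34.1, 37.8 and 39.0 CPM in 5-FU LGR5-. All treated libraries were above all untreated ones, as within a population for 22.3% of all genes in LGR5+ and 13.7% in LGR5- cells. It rose 1.93-fold in LGR5+ cells (log2 fold change 0.95, SE 0.18, adjusted p = 0.00211) and 1.75-fold in LGR5- cells (0.81, SE 0.18, adjusted p = 0.0066), and both calls held when any 1 library was left out.

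Atp6v0a1, the broad form of the subunit that carries the proton half-channels, read 25.4, 33.7 and 24.7 CPM in untreated LGR5+ and 34.2, 38.2 and 38.1 CPM in 5-FU LGR5+, which did not overlap (log2 fold change 0.40, SE 0.17, adjusted p = 0.126, 95% interval 0.04 to 0.76). In LGR5- cells it read 22.5, 23.3 and 26.1 CPM untreated and 30.4, 24.2 and 26.6 CPM treated, which overlapped (0.18, SE 0.17, adjusted p = 0.539, -0.19 to 0.54).

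The catalytic subunit gene Atp6v1a rose in both populations. It read 63.2, 81.7 and 81.5 CPM in untreated LGR5+ and 107, 125 and 120 CPM in 5-FU LGR5+, and 59.98, 74.0 and 57.2 CPM in untreated LGR5- against 106, 132 and 114 CPM in 5-FU LGR5-. The groups did not overlap, as for a higher level in 22.3% of all genes in LGR5+ and 13.7% in LGR5- cells. The rise was 1.56-fold in LGR5+ (log2 fold change 0.64, SE 0.18, adjusted p = 0.0225) and 1.84-fold in LGR5- cells (0.88, SE 0.18, adjusted p = 0.00407). The LGR5+ call was lost on leaving out replicate 1 or 3 of the untreated or replicate 2 or 3 of the treated libraries (adjusted p = 0.0565 to 0.105) and with no filter on low counts (0.0754). The LGR5- call held in each of these settings.

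The stalk subunit gene Atp6v1e1 rose likewise. It read 155, 139 and 152 CPM in untreated LGR5+ and 236, 259 and 285 CPM in 5-FU LGR5+, and 153, 165 and 108 CPM in untreated LGR5- against 220, 256 and 222 CPM in 5-FU LGR5-. No treated library was as low as an untreated one of its population, as for 22.3% of all genes in LGR5+ and 13.7% in LGR5- cells. The rise was 1.75-fold in LGR5+ (log2 fold change 0.80, SE 0.19, adjusted p = 0.00891) and 1.64-fold in LGR5- cells (0.71, SE 0.19, adjusted p = 0.0185). The LGR5+ call was lost without replicate 3 of the treated libraries (adjusted p = 0.0525), and the LGR5- call without replicate 2 of the treated libraries (0.0744) and in the fit on the 6 LGR5- libraries alone (0.107).

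**Figure D3:**
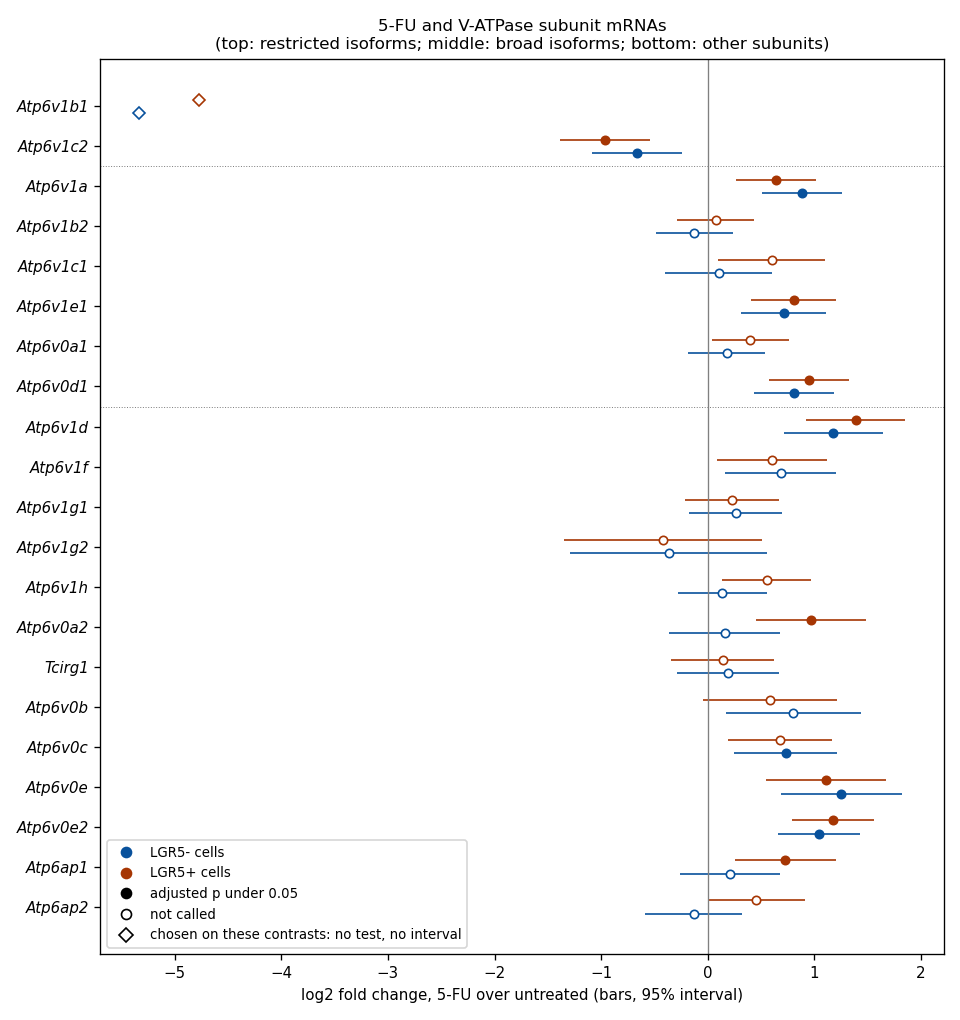
Log2 fold change of 5-FU over untreated libraries for the tested V-ATPase subunit genes in LGR5+ (brown) and LGR5- (blue) cells, with 95% intervals as bars, filled points for an adjusted p under 0.05 and open diamonds with no interval for Atp6v1b1, which was chosen on these contrasts. Atp6v1c2 at -0.97 and -0.66 is the tested gene called lower, and the other called genes lie between 0.64 and 1.39.

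Both 5-FU comparisons have their own control libraries, but same-numbered LGR5+ and LGR5- libraries deviated together after 5-FU (correlation 0.83, 0.47 and 0.58 over 4864 genes), so the calls made in both populations are not independent. The difference between the 2 responses and the comparisons between populations reuse the same 12 libraries. For the difference of the responses (LGR5+ minus LGR5-) 0 of the 7 tested members were called by edgeR, 0 had an unadjusted p under 0.05 and 0 were called by DESeq2, where edgeR called 0% of all genes and 1.57% had an unadjusted p under 0.05. The largest differences were 0.50 for Atp6v1c1 (95% interval -0.21 to 1.21) and -0.30 for Atp6v1c2 (-0.90 to 0.29), so a difference of that size between the populations is not shown and not excluded. That of Atp6v1b1 was 0.56, a description, and it turned to -3.22 without replicate 1 of 5-FU LGR5+.

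Between the labelled populations, for which no difference in Lgr5 itself was called, 0 of the 7 tested members other than Atp6v1b1 were called in untreated or in treated libraries. In untreated libraries 0 members had an unadjusted p under 0.05 and DESeq2 called 0, where edgeR called 0% of all genes and 1.32% had an unadjusted p under 0.05. In treated libraries edgeR called 0% of all genes, 13.0% had an unadjusted p under 0.05, and DESeq2 called 0 members and 75 genes in all. The member with an unadjusted p under 0.05 was Atp6v0a1, higher in LGR5+ libraries after 5-FU by 0.44 on the log2 scale (SE 0.17, edgeR adjusted p = 0.357). Its groups did not overlap, as for a higher level in 14.2% of all genes. These fits had no replicate block, although same-numbered libraries of the populations deviated together after 5-FU. With the replicate number as a block, edgeR called 0 members and 0 genes in all between the treated populations. Atp6v1b1 differed between the populations by 0.49 untreated (SE 0.65, adjusted p = 1), a value that turned to -0.27 without replicate 3 of untreated LGR5+. After 5-FU, with 5, 0 and 0 reads in the LGR5+ and 1, 1 and 0 in the LGR5- libraries, a difference between the populations was not detectable.

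The other subunit genes of the enzyme rose after 5-FU or were not called. Of 15 listed genes for V1, V0 and the accessory subunits, 13 had enough reads, and 5 rose and 0 fell after 5-FU in LGR5+ cells while 4 rose and 0 fell in LGR5- cells, where 9.66% and 8.30% of all genes were called higher. The median log2 fold change of the 13 was 0.60 and 0.26, beside -0.02 and -0.05 over all genes. Atp6v1d, a subunit of the central stalk, rose by 1.39 in LGR5+ (SE 0.22, adjusted p = 0.000601) and 1.18 in LGR5- cells (adjusted p = 0.00249). Atp6v0e2, an isoform of the small membrane subunit e, rose by 1.18 (SE 0.18, adjusted p = 0.000489) and 1.04 (adjusted p = 0.0016). Atp6v0e, the other e isoform, rose by 1.11 (SE 0.27, adjusted p = 0.0102) and 1.25 (adjusted p = 0.00562), and its LGR5+ call was lost without replicate 3 of the treated libraries (adjusted p = 0.0638).

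The remaining calls in this group were made in 1 population each. Atp6v0a2, an a subunit isoform, and Atp6ap1, an accessory subunit, rose in LGR5+ cells by 0.97 (SE 0.24, adjusted p = 0.0135) and 0.73 (SE 0.22, adjusted p = 0.0362), and their values in LGR5- cells were 0.16 and 0.21. Atp6v0c, the proteolipid that forms most of the rotor ring, rose in LGR5- cells by 0.73 (adjusted p = 0.0428) and stood at 0.68 in LGR5+ cells (adjusted p = 0.0572), and 9.24% of its 75-base stretches recur in other genes. The calls of Atp6v0a2 and Atp6ap1 were each lost without replicate 2 or 3 of the untreated or of the treated LGR5+ libraries (adjusted p up to 0.0769 and 0.148). The call of Atp6v0c was lost without any 1 LGR5- library other than replicate 1 of the treated ones (adjusted p up to 0.131), and in 3 of the 8 other settings, which were no filter, the compared libraries alone and without both replicate 3 libraries. The difference between populations was called for none of them. In LGR5+ and LGR5- cells, the values not called were 0.60 and 0.68 for Atp6v1f, 0.58 and 0.80 for Atp6v0b, 0.55 and 0.14 for Atp6v1h, and 0.46 and -0.13 for Atp6ap2. Atp6v0b had an adjusted p of 0.0833 in LGR5- cells and was called there in 4 of 8 other settings, with the replicate block among them (adjusted p = 0.012), and in 2 of 6 fits without 1 library, and in LGR5+ cells in the fit on the compared libraries alone (adjusted p = 0.0397). Atp6v1f was called in LGR5- cells by DESeq2, with library size scaling alone and without replicate 1 of the treated libraries (lowest adjusted p = 0.0299). In LGR5+ cells the fit on the compared libraries alone called Atp6v1f, Atp6v1h and Atp6v0c (adjusted p = 0.0375, 0.0134 and 0.0408), and Atp6v0c was also called by DESeq2 and without replicate 1 of the treated libraries (0.0241). They were 0.23 and 0.26 for Atp6v1g1, 0.14 and 0.19 for Tcirg1, the a3 isoform, and -0.42 and -0.37 for Atp6v1g2, a G isoform known from neurons. Leaving out 1 library at a time gave 2 to 6 calls in LGR5+ cells, with 2 without replicate 3 of the treated libraries and 3 without replicate 2 or 3 of the untreated or replicate 2 of the treated ones, and 3 to 6 calls in LGR5- cells. The fit on the compared libraries alone gave 9 in LGR5+ cells.

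On the per-length scale the restricted members other than Atp6v1c2 lay below the broad ones. In untreated LGR5+ libraries the mean level was 36.2 CPM per kilobase for Atp6v1e1, 24.4 for Atp6v1b2, 12.5 for Atp6v1a, 10.2 for Atp6v0d1, 7.97 for Atp6v1c2, 7.65 for Atp6v1c1 and 4.26 for Atp6v0a1. Below these followed Atp6v1b1 at 0.633, Atp6v0d2 at 0.0446 and Atp6v0a4 at 0.0198. Atp6v1c2 was thus the restricted member with a level in the range of the broad subunits. After 5-FU in LGR5+ cells Atp6v1c2 stood at 4.08 CPM per kilobase and Atp6v1b1 at 0.0214, near Atp6v0a4 at 0.0150 and below Atp6v0d2 at 0.0753. Levels per kilobase use the union of a gene's exons, so they are lowered for a gene whose long annotated exons are not used in these cells.

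**Figure D4:**
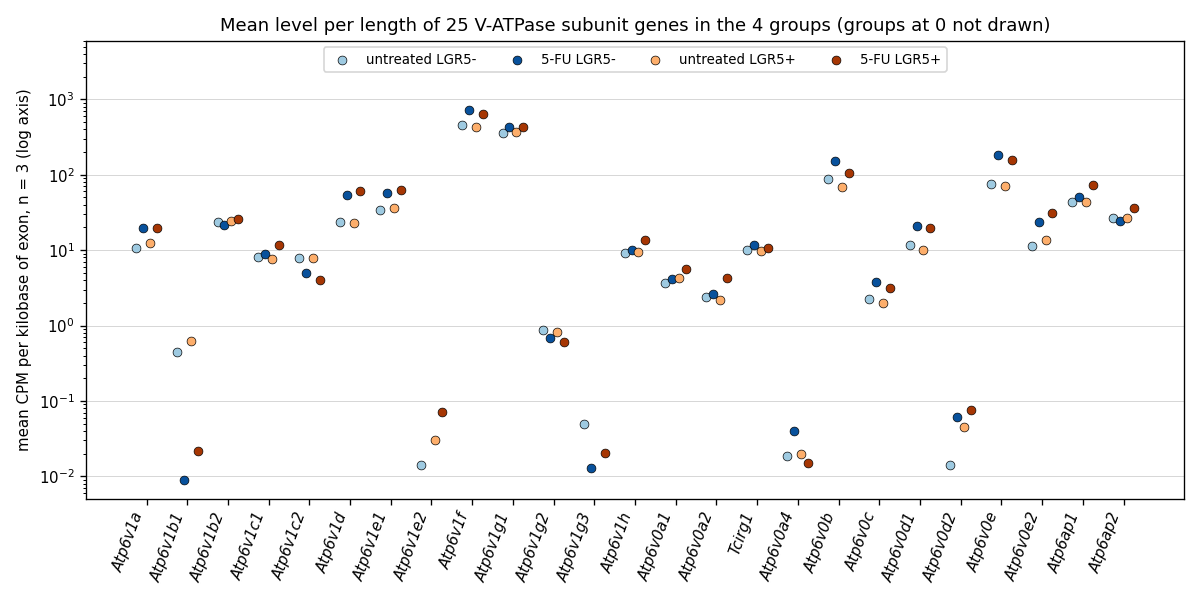
Mean level per kilobase of exon (log axis, n = 3 libraries per group) of 25 V-ATPase subunit genes, the 10 members and 15 others, where groups at 0 are not drawn. Atp6v1b1 moves from 0.633 to 0.0214 CPM per kilobase in LGR5+ cells, while Atp6v1b2 stays between 21.5 and 25.8 and Atp6v0a4 and Atp6v0d2 lie under 0.1 in all 4 groups.

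Genes that work with the pump were read against the same shares of all genes, which in LGR5+ cells were 9.66% called higher and 6.37% lower and in LGR5- cells 8.30% and 7.11%. Of 13 listed assembly and regulatory genes, 10 were tested and 1, Rogdi, a partner in assembling V1 on V0, rose in both populations (log2 fold change 0.51, adjusted p = 0.0456, and 0.55, adjusted p = 0.0307, in LGR5+ and LGR5- cells). Of 18 lysosomal genes, 17 were tested, and 6 rose and 0 fell in LGR5+ cells while 2 rose and 1 fell in LGR5- cells, with medians of 0.49 and 0.13 beside -0.02 and -0.05 over all genes. The LGR5+ count lies above the share of all genes called higher and the LGR5- count near it. Ctsd, a lysosomal aspartic protease, rose by 2.45 (adjusted p = 5.8e-05) and 1.73 (adjusted p = 0.00101) in the 2 populations. Ctsb, a cysteine protease, and Sqstm1, an autophagy receptor, rose in LGR5+ cells by 0.68 (adjusted p = 0.0264) and 0.91 (adjusted p = 0.0272). The gene that fell in LGR5- cells was Gla, an alpha-galactosidase, by 0.74 on the log2 scale (adjusted p = 0.0295), and it is named here after its value was seen. Of 10 Ragulator and Rag GTPase genes, which dock the growth regulator mTORC1 on the lysosome, 1 was called in LGR5+ cells, Rragd, which fell by 1.30 on the log2 scale (adjusted p = 0.0494), and 0 were called in LGR5- cells by edgeR, where 2 had an unadjusted p under 0.05.

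Most markers of acid-secreting epithelial cells and of osteoclasts, which are among the cell types known for the restricted isoforms, were near 0. Those of alveolar epithelium, given below, were not. Of 14 markers of acid-secreting epithelial cells, 3 were tested, Slc4a1 and Rhcg had no read in any library and Foxi1, the factor that defines intercalated cells, had 3 reads in 1 treated LGR5+ library and none elsewhere. The summed level of the list, nearly all of it Car2, a widely expressed carbonic anhydrase, was 1270 to 1514 CPM in untreated LGR5+ and 2115 to 2500 CPM in 5-FU LGR5+ (884 to 1306 and 1285 to 2013 CPM in LGR5-). Slc26a4, an anion exchanger of such cells, rose from a mean of 0.296 ± 0.0935 to 3.84 ± 0.499 CPM (SD, n = 3) in LGR5+ cells (log2 fold change 3.66, adjusted p = 0.000565) and by 2.29 in LGR5- cells (adjusted p = 0.0087). Car2 itself was not called (log2 fold change 0.71 and 0.49, adjusted p = 0.0538 and 0.185 in LGR5+ and LGR5- cells). Kit, the other tested marker, was not called (log2 fold change -0.31 and -0.33, adjusted p = 0.346 and 0.324 in LGR5+ and LGR5- cells), and Cftr, a chloride channel, held 19 and 18 reads in the untreated and treated LGR5+ and 21 and 9 in the untreated and treated LGR5- groups. Of 9 osteoclast markers, 2 were tested, Calcr held 0 or 1 read and Dcstamp 0 to 3 reads per library. Mmp9, a protease that was too low to be tested, held 4 reads in untreated and 54 in 5-FU LGR5+ libraries, which did not overlap, and 2 and 4 reads in LGR5-. Of the tested markers, Nfatc1, a transcription factor, was not called (log2 fold change 0.63 and 0.42, adjusted p = 0.0717 and 0.25 in LGR5+ and LGR5- cells), and Acp5, a phosphatase also made by other cells, rose in LGR5+ cells by 0.52 (adjusted p = 0.0438). The list summed to 49.2 to 53.0 CPM in the untreated libraries, 49.1 to 69.5 in 5-FU LGR5- and 70.7 to 80.6 in 5-FU LGR5+.

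The labelled origin was checked in the same way. Of 8 hepatocyte markers, 2 were tested, the defining genes Cyp3a11, Serpina1a and Fgb had no read and Hnf4a at most 2 reads in a library, and Afp, a fetal liver protein, rose by 1.31 and 1.43 (adjusted p = 0.0177 and 0.0118 in LGR5+ and LGR5- cells). Alb averaged 0.679 to 0.944 CPM and Apoa1 0.132 to 0.281 CPM over the groups, and Ttr held at most 1 read in a library. All 6 cholangiocyte markers were tested, and Krt19 and Krt7, keratins of ductal epithelia, rose in LGR5+ cells by 2.95 and 2.64, and in LGR5- cells by 2.35 and 1.75 (largest adjusted p = 0.00292). Markers of alveolar epithelium, in which C2 is also known, were present in all libraries: Sftpc averaged 4285 to 12407 CPM over the groups and Nkx2-1 49.3 to 63.2 CPM. Of that list's 10 genes 4 rose in each population, among them Sftpd, a surfactant protein, by 2.69 and 2.48 (adjusted p = 2.04e-05 and 7.16e-05), Hopx by 1.10 and 1.35 (adjusted p = 0.00262 and 0.000762) and Ager by 1.80 and 1.78 (adjusted p = 0.00847 and 0.00976), with Lamp3 in LGR5+ cells by 1.19 (adjusted p = 0.00874). Sftpc, which makes up most of the list's level, was not called and had values in the other direction, with a mean of 8773 ± 5985 CPM (SD, n = 3) in untreated and 4285 ± 1521 CPM in 5-FU LGR5+ (log2 fold change -1.03, adjusted p = 0.228), and 12407 ± 7778 and 5194 ± 1109 CPM in LGR5- (-1.26, adjusted p = 0.147). The list summed to 5081 to 15941 CPM in untreated and 3205 to 6401 CPM in 5-FU LGR5+, and to 3626 to 17609 and 4520 to 6647 CPM in LGR5-. Its part, and that of the epithelial markers, in the levels of Atp6v1c2 was not tested.

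Among 9 macrophage markers, which matter because these cells have a high content of V-ATPase, 3 were tested. Lyz2 and Cd68 rose in LGR5+ cells by 1.80 and 2.07 (adjusted p = 0.00263 and 0.00173) and in LGR5- cells by 3.56 and 1.95 (adjusted p = 4.44e-05 and 0.00326). The list summed to 12.5 to 40.2 CPM in the untreated and 73.2 to 132 CPM in the treated libraries, nearly all of it Lyz2 and Cd68. The more restricted markers were near 0. From untreated to treated LGR5+ libraries the group sums were 5 and 2 reads for Adgre1, 10 and 7 for Csf1r, 1 and 0 for C1qa and 7 and 1 for C1qb. In LGR5- libraries they were 12 and 14, 8 and 17, 5 and 10, and 7 and 15 reads in the same order, and Marco had no read in any library. Ptprc, the gene of the CD45 antigen used to gate out leucocytes, held 3 to 36 reads per library, with group sums of 20 and 52 reads in untreated and treated LGR5+ and 21 and 37 in LGR5- (log2 fold change 1.28 and 0.94, adjusted p = 0.289 and 0.459). Mrc1 held 3 and 8 reads in LGR5+ and 2 and 4 in LGR5-. The list's part in the rise of the broad subunit genes was not tested. The LGR5- calls of the 4 members held without both replicate 3 libraries of high mitochondrial share (adjusted p = 0.00798 for Atp6v1a, 0.0234 for Atp6v1e1, 0.0222 for Atp6v0d1 and 0.0211 for Atp6v1c2).

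Among the genes whose pattern over the 12 libraries came closest to that of Atp6v1b1 were Lix1, Tmigd1, Aldh1l2 and Cxcr4. Likeness was the root mean square difference of mean-centred log2 CPM, and it was 0.514 for Lix1, 0.737 for Tmigd1, 0.835 for Aldh1l2 and 0.838 for Cxcr4, beside 1.98 for the spread of Atp6v1b1 around its own mean. Lix1 averaged 8.89 ± 2.55 CPM (SD, n = 3) in untreated LGR5+ and 0.624 ± 0.460 in 5-FU LGR5+, and 6.19 ± 0.342 and 0.475 ± 0.254 in LGR5- cells. Among the members the closest was Atp6v1c2 at 1.60, rank 1289 of 16156 genes, followed by Atp6v1b2 at rank 6785, and the 5 others stood at ranks 11216 to 14532. The measure uses the values that chose Atp6v1b1 and is a description.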

How the data were processed

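Read counts per gene for the 12 libraries, prepared from amplified full-length cDNA and sequenced in pairs, were used as deposited by the authors. The submitters' processing notes name HISAT, HISAT2, TopHat2, HTSeq and the build mm8, with no role or version. The annotation and the strand setting of the counting are not given in the sources used here. The count table carries gene IDs without coordinates, so symbols (46488 of 47069 IDs matched), exon lengths and coordinates were taken from GENCODE M21 on GRCm38 and promoter windows (250 bases before and 50 after the start) from RefSeq on GRCm38.p6. Groups follow the sample titles, whose abbreviations were read with the series' design text.

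Totals were 13750591 to 19323514 reads. Genes were filtered with edgeR 4.0.16 in R 4.3.3 (filterByExpr), scaled by TMM and tested across all 12 libraries with a quasi-likelihood fit of 4 group means, robust and without a replicate block. This left 16157 genes and a biological coefficient of variation of 26.6%. A gene was called at a Benjamini-Hochberg adjusted p under 0.05, and intervals are 95% intervals from the fit's standard error and degrees of freedom. Isoform ratios were tested exactly in Python 3.11.15 with scipy 1.17.1, and coding sequences were aligned with Biopython 1.88. Tested on simulated data for 5-FU in LGR5+ cells with 15779 genes, the fit recovered 95% of changes of 2 and 30% of changes of 1 on the log2 scale, with 3.1% false among the calls.

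The members and gene lists were chosen with earlier results of these data known, and the motifs after sequences and values had been seen. Named are all members, the other subunits that passed the filter, at most 4 called genes of each further list by p, and the 5 genes most like Atp6v1b1, except that 2 genes under this rule are not reported here. Genes named outside that rule serve as a check of the libraries or are said to be chosen after their values were seen. DESeq2 1.42.0, other scalings and filters, the replicate block, fits on the compared libraries alone and leaving out each library were tried as alternatives.

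Whether replicate numbers pair the libraries was checked on deviations from group means over 4864 genes. Same-numbered LGR5+ and LGR5- libraries correlated at 0.83, 0.47 and 0.58 after 5-FU, and at 0.72, -0.03 and 0.38 untreated. Treated and untreated libraries correlated at -0.17, -0.29 and -0.06 in the LGR5+ population, and at 0.06, 0.34 and 0.45 among LGR5- libraries. The numbers thus pair the populations after 5-FU and only name the libraries in the 5-FU comparisons. No 2 libraries of a group agreed within sampling noise.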

Additional observations from a re-analysis of the deposited data

How the results depend on the processing

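With the replicate number as a block, 4 members were called in each 5-FU comparison, as without the block, and no call of a member changed. By the study's thresholds 0 members were called in either population, in place of 4. The fit on the compared libraries alone called 2 in LGR5- cells. Leaving out 1 library at a time gave 2 to 4 members in LGR5+ cells, fewest without replicate 3 of 5-FU LGR5+, and 2 to 4 in LGR5- cells, fewest without replicate 2 of 5-FU LGR5-. With 2 reads added in place of 0.5, the change of the B1 to B2 log2 ratio was -3.50 in LGR5- and -3.92 in LGR5+ cells, as the added reads weigh more on libraries near 0, and that of d2 to d1 in LGR5- cells reversed to -0.048. Leaving out 1 library, a4 to a1 in LGR5+ cells ranged from -1.71 to 0.001, d2 to d1 from -1.15 to 0.33 in LGR5+ and -0.48 to 1.29 in LGR5- cells, and reversed within each range. The difference of responses of Atp6v1b1 was 1.33 without replicate 3 of untreated LGR5+ and reversed to -3.22 without replicate 1 of 5-FU LGR5+. Atp6v0d1 in both populations, Atp6v1c2 in LGR5+ and Atp6v1a in LGR5- cells kept their calls under every alternative run with adjusted p-values. The fits on fewer libraries have fewer degrees of freedom, and the cause of the other changes was not tested. Depth limits Atp6v0a4 and Atp6v0d2, at 0 to 8 reads per library, and the treated libraries of Atp6v1b1.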
